A study of Mus musculus with 8 samples.

Results

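The unfolded protein response and the integrated stress response were examined through 32 genes in the fasted liver of mice carrying a point mutation of perilipin 5. The genes were taken from the deposited table by gene symbol, and all 32 were found among its 45706 genes and kept by the filter on low counts. They were 14 chaperones and folding enzymes of the endoplasmic reticulum (ER), 5 genes of ER-associated degradation, the stress sensors Eif2ak3, Ern1 and Atf6, 5 transcription factors, and 5 targets or feedback genes of the integrated stress response. Liver RNA was sequenced from 8 female C57BL/6J mice, 4 wild-type (WT) and 4 homozygous for the PLIN5 S155A knock-in (SA/SA), all 4 months of age, after an overnight fast. Each mouse gave 1 library. The edit was made with CRISPR-Cas9 in the endogenous gene, so every cell of the SA/SA mice carried it, not only hepatocytes. The labels name hepatocytes as the cell type and liver as the tissue, and the values are read here as whole liver.

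Each mouse also carries a number in its label, and these numbers form a low series (under 200, mice WT 1, WT 4, SA/SA 1 and SA/SA 4) and a high series (over 800, mice WT 2, WT 3, SA/SA 2 and SA/SA 3). The labels do not say what the number stands for. It is read as the number of the animal, and litter, cage, date of harvest and any other factor that follows it cannot be told apart. In the high series SA/SA 2 and SA/SA 3 carried the consecutive numbers 830 and 831, and WT 2 and WT 3 carried 856 and 869. In the low series WT 1, WT 4, SA/SA 1 and SA/SA 4 carried 123, 89, 118 and 90. A litter or cage shared by SA/SA 2 and SA/SA 3 alone cannot be told apart from a genotype difference in the high series. Leaving out 1 mouse always keeps at least 1 of this pair. With 2 mice of each genotype in each series, 3 differences could be fitted: SA/SA against WT over all mice, the high against the low series, and the interaction, which is the genotype difference in the high series minus the genotype difference in the low series.

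Proteins that enter the ER fold with the help of chaperones such as BiP (Hspa5) and GRP94 (Hsp90b1). When unfolded proteins build up, the sensors IRE1 alpha (Ern1), PERK (Eif2ak3) and ATF6 raise the transcription of chaperones, folding enzymes and the machinery that sends misfolded proteins to the proteasome. PERK belongs to the kinases of the integrated stress response, which phosphorylate the initiation factor eIF2 alpha, slow protein synthesis and favour translation of ATF4. Hepatocytes secrete large amounts of plasma protein and use this system continuously.

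Many chaperone promoters carry the ER stress response element, bound by NF-Y together with ATF6 or XBP1. The 250 bases before the RefSeq start site (GRCm38.p6) were searched on both strands for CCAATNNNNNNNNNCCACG, and 29 of the 32 genes had such a window. It was found before 9 of these 29 genes and in 0.113% of all 32851 windows. The related ER stress response element II, whose match is shown last below, stood before Herpud1 and in 0.0304% of all windows, and TGATGNAAN, the C/EBP-ATF element read by ATF4, before Herpud1, Atf3, Asns and Chac1 and in 3.44% of all windows. The matches below are written in the orientation of the element, with the fixed letters in capitals, to show how the 9 genes differ in the spacer. They lay between 26 bases (Syvn1) and 212 bases (the farther match of Hsp90b1) before the start. A match is a string of letters and does not show that a factor bound there in these mice.
Hspa5: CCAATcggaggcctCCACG
Hsp90b1, nearer match: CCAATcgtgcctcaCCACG
Hsp90b1, farther match: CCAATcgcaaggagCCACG
Calr: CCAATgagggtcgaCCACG
Canx: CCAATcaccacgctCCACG
Pdia6: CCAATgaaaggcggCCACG
Dnajc3: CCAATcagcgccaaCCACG
Creld2: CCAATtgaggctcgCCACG
Derl3: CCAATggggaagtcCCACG
Syvn1: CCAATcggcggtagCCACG
Herpud1, related element: ATTGGgCCACG

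The whole window is shown for 4 genes whose values are described in detail below: Derl3 (chr10:75893148-75893397) and Creld2 (chr15:88819396-88819645), which hold the first element, Herpud1 (chr8:94386179-94386428), which holds the related element and the ATF4 element, and Chac1 (chr2:119350992-119351241), which holds the ATF4 element alone. All 4 lie on the plus strand, and the matches stand in capitals on whichever strand they occur.
Derl3: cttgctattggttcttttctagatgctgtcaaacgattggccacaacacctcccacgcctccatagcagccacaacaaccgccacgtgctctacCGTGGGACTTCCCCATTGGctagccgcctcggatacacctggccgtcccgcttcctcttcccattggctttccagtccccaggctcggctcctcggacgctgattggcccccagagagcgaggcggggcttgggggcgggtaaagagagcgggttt
Creld2: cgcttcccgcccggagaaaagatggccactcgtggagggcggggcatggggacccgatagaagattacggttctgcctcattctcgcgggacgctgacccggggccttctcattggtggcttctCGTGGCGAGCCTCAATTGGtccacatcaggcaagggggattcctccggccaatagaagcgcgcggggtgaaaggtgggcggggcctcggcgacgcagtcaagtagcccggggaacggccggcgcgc
Herpud1: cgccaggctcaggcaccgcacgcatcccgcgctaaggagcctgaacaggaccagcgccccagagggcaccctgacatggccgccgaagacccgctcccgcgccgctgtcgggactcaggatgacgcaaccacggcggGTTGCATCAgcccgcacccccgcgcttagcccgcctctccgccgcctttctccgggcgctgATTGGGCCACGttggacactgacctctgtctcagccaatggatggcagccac
Chac1: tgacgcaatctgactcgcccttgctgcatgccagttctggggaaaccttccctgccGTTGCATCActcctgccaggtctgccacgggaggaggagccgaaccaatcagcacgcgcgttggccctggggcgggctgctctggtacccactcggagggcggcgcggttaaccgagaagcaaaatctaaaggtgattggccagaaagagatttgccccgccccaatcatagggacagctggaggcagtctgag

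Levels are in CPM, the count of a gene scaled to a common library size with TMM normalization. Total counts ranged from 39709785 to 54540864 per library. Plin5 was at 183 to 254 CPM in WT mice and 192 to 457 CPM in SA/SA mice, and gene counts cannot separate the mutant from the normal codon. In the low series Plin5 was at 457 and 386 CPM in SA/SA mice and 254 and 194 CPM in WT mice. In the high series it was at 276 and 192 CPM in SA/SA mice and 194 and 183 CPM in WT mice. Its genotype difference over all mice was 0.67 on the log2 scale (adjusted p = 0.993, edgeR). Genes were compared with the quasi-likelihood test of edgeR over 14629 genes with Benjamini-Hochberg adjustment, and a gene was called at an adjusted p under 0.05. The share of all genes called was 0% for genotype, 0% for the number series and 0% for the interaction, and no member was called. Counts at an unadjusted p under 0.05 are therefore given beside the same share over all genes, and no difference of a single gene below passed the adjusted threshold in edgeR with the filter on low counts.

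The members did not separate the genotypes as a whole, but their order among mice was shared. SA/SA 2 and SA/SA 3 were the 2 highest mice for 22 of the 32 genes, and WT 3 was the lowest for 18. Over all 14629 genes tested, these counts were 1332 and 1527. Relative to the mean of each gene over the 8 mice, the median member was 0.52 higher on the log2 scale in SA/SA 2 and 0.48 higher in SA/SA 3, and -0.54 in WT 3. The other mice lay between -0.31 (SA/SA 1) and 0.16 (WT 1). The 2 SA/SA mice of the high series thus stood above, and the 2 SA/SA mice of the low series were not, in median, above the WT mice of their own series.

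**Figure D1:**
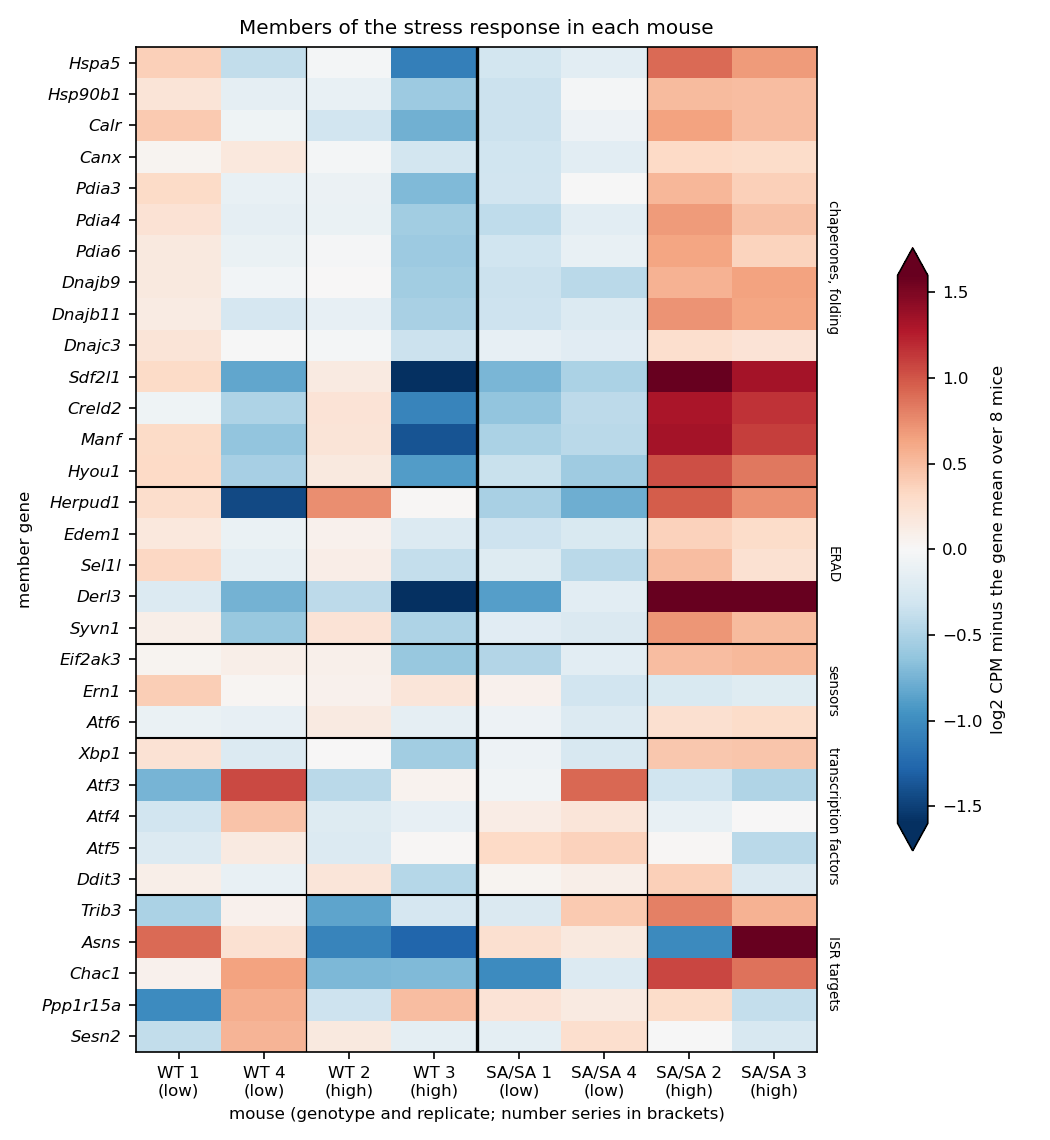
Log2 CPM of the 32 members minus the mean of each gene over the 8 mice, with 1 column per mouse and genes grouped by role. The columns of SA/SA 2 and SA/SA 3 are high across the chaperones and WT 3 is low, while the transcription factors and targets of the integrated stress response vary gene by gene.

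Between the genotypes over all 8 mice, the median log2 fold change of the members was 0.29, with 29 of 32 above 0. That of all genes tested was -0.0050, with 7138 of 14629 above 0. At an unadjusted p under 0.05, 2 members were higher in SA/SA mice (Derl3 and Trib3), where 1.42% of all genes were, and 1 was lower (Ern1), where 1.98% of all genes were. In 0.943% of all genes every SA/SA mouse was above every WT mouse and in 1.36% every SA/SA mouse was below, and both counts were 0 among the members. The number of members at an unadjusted p under 0.05 was 8 without SA/SA 1 and 6 without SA/SA 4, where 6.02% and 4.20% of all genes were, against 3 members and 3.40% of all genes with all mice. The median fell to 0.14 without SA/SA 2 and to 0.18 without WT 3.

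Between the number series the median of the members was 0.22 and that of all genes -0.0045. Herpud1 and Atf6 were higher in the high series at an unadjusted p under 0.05, where 6.64% of all genes were, and no member was lower, where 6.19% of all genes were. No member separated the series without overlap, which 3.53% of all genes did with the high series above and 3.32% with it below. This count rested on single mice: without WT 1 or without WT 3, 14 members were at an unadjusted p under 0.05, where 15.3% and 16.1% of all genes were, and 1 was without WT 2, SA/SA 1, SA/SA 2 or SA/SA 4, where 8.44% to 9.54% of all genes were. With all mice 12.8% of all genes were. The median was -0.28 within WT mice and 0.69 within SA/SA mice, so the pooled value joins differences of opposite sign.

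The clearest pattern in the members was the interaction. Of the 32 genes, 20 had a larger SA/SA to WT ratio in the high series than in the low series at an unadjusted p under 0.05, where 6.02% of all genes did, and 0 had a smaller one, where 5.07% of all genes did. The median interaction of the members was 0.96 on the log2 scale and that of all genes was -0.0092. The smallest adjusted p of a member in edgeR was 0.219 (Calr). DESeq2 on the same counts called 13 members and 285 genes, and edgeR without the filter on low counts called 18 members and 765 genes. The smallest adjusted p over all genes in edgeR was 1.14e-138 without that filter and 0.0851 with it. No member was called by limma-voom or by edgeR with DESeq2 size factors. The same held for edgeR with library size alone, with TMM without the 50 most abundant genes, and with a filter of 1 CPM in 4 mice. Scaling by library size alone, without TMM, moved the median of all genes to -0.16 and that of the members to 0.81, with 20 members at an unadjusted p under 0.05. Leaving out any 1 mouse left between 19 and 25 members at an unadjusted p under 0.05, where 7.18% to 14.6% of all genes were.

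Within the high series both SA/SA mice were above both WT mice for 25 members and below for 1 (Ern1), and over all genes these shares were 22.7% and 23.8%. Within the low series both SA/SA mice were above both WT mice for 1 member (Atf5) and below for 10, and over all genes the shares were 16.6% and 16.3%. The 10 genes that were below in the low series were all above in the high series, a combination found in 4.76% of all genes. They were Calr, Canx, Pdia4, Pdia6, Dnajb9, Dnajc3, Edem1, Sel1l, Eif2ak3 and Chac1. The median difference of mean log2 CPM was 0.78 in the high series, with 27 of 32 above 0. In the low series it was -0.24, with 7 of 32 above 0. Over all 14629 genes tested, 7151 were above 0 in the high series and 7226 in the low series.

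**Figure D2:**
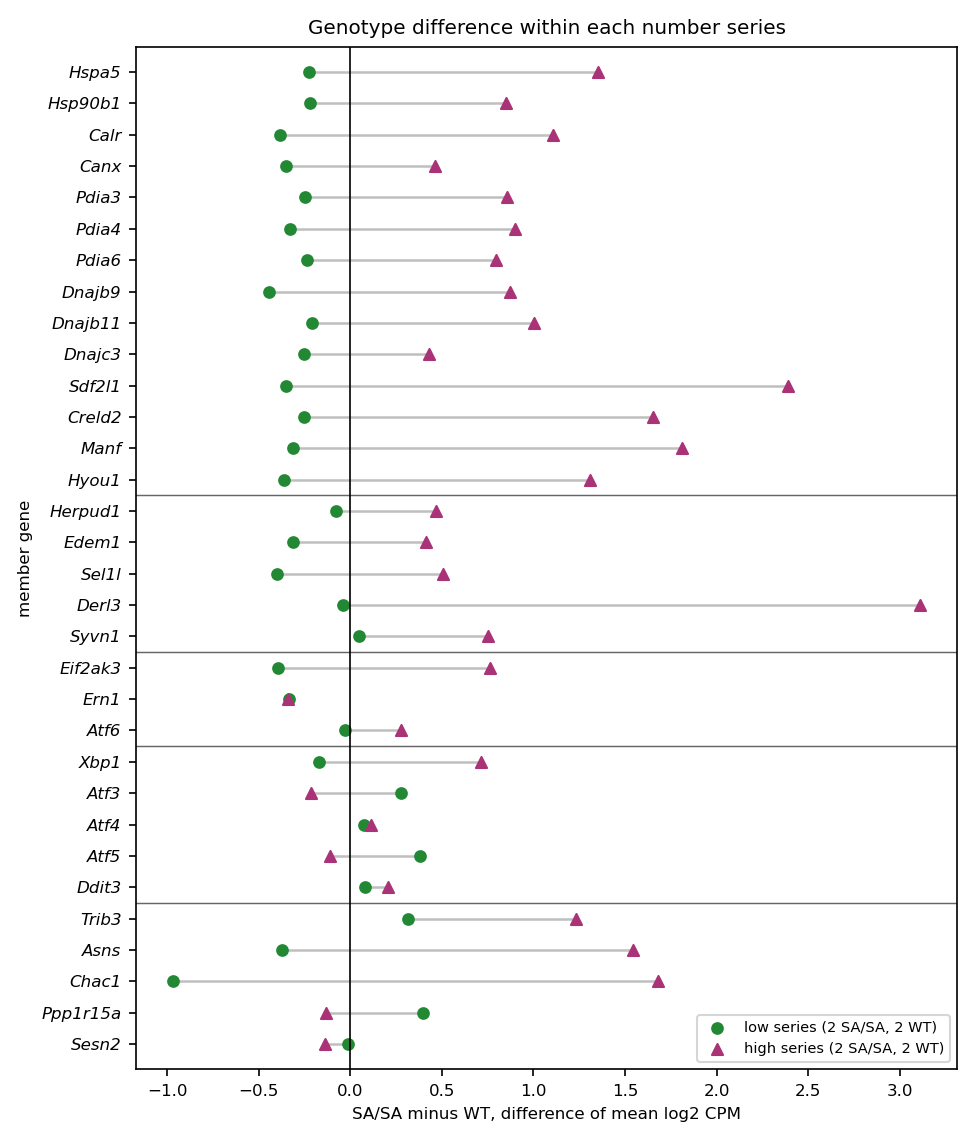
SA/SA minus WT difference of mean log2 CPM for each member, with 1 point for the low series and 1 for the high series, each from 2 mice per genotype. In the high series 27 of 32 points are above 0 and in the low series 7 of 32, and Derl3 and Sdf2l1 are farthest apart. Over all 14629 genes tested, 7151 are above 0 in the high series and 7226 in the low series.

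The ER chaperones and folding enzymes behaved alike. All 14 of 14 had a positive interaction at an unadjusted p under 0.05, with a list median of 1.26, and in the high series both SA/SA mice were above both WT mice for all 14. SA/SA 2 and SA/SA 3 were the 2 highest mice for each of them, and WT 3 was the lowest for 13. The list median within the low series was -0.28 and no member of the list was above 0 there.

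Hspa5 encodes BiP, the main chaperone of the ER lumen, and lies on chromosome 2 from 34771970 to 34777547 (GRCm38). It was at 802, 603, 288 and 468 CPM in WT 1 to WT 4 and at 502, 1148, 984 and 546 CPM in SA/SA 1 to SA/SA 4. SA/SA mice of the high series were 2.55-fold above WT mice, while in the low series the ratio was 0.854, and the genotypes overlapped over all 8 mice. The interaction was 1.54 (standard error 0.48, adjusted p = 0.321, edgeR), and the genotype difference over all mice was 0.56 (standard error 0.34, adjusted p = 0.993). Hsp90b1, the ER member of the HSP90 family, was at 803, 641, 465 and 631 CPM in WT mice and 549, 988, 983 and 679 CPM in SA/SA mice. Hyou1, a large HSP70-like chaperone, was at 148, 132, 63.4 and 82.0 CPM in WT mice and 92.3, 241, 213 and 79.6 CPM in SA/SA mice. In each of these genes WT 1, of the low series, was the highest WT mouse.

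Calreticulin and calnexin hold glycoproteins in the ER until they are folded. Calr had the smallest p of the members, with an interaction of 1.49 (standard error 0.30, adjusted p = 0.219). Its level was 697, 421, 306 and 495 CPM in WT mice and 410.4, 814, 735 and 493 CPM in SA/SA mice, so both SA/SA mice of the high series were above and both of the low series below their WT counterparts. A pseudogene of the same name, Calr-ps, is annotated and could share reads with it. Canx was at 166, 158, 131 and 180.2 CPM in WT mice and 129, 199.96, 197 and 143 CPM in SA/SA mice. Its range over the 8 mice, 1.55-fold from lowest to highest, was among the narrowest of the list, and its interaction was 0.81 (standard error 0.19, adjusted p = 0.262).

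The protein disulfide isomerases, which form and rearrange disulfide bonds, had interactions of 1.08 (Pdia3), 1.22 (Pdia4) and 1.02 (Pdia6). Pdia3 was at 266, 203, 132 and 199 CPM in WT mice and 174, 312, 282 and 216 CPM in SA/SA mice. Pdia4 was at 181, 143, 104 and 138 CPM in WT mice and 116, 245, 212 and 137 CPM in SA/SA mice. All 3 were 1.74-fold to 1.86-fold higher in SA/SA than in WT mice of the high series. Pdia6 was at 129, 114, 77.3 and 107 CPM in WT mice and 93.1, 179, 149 and 107 CPM in SA/SA mice, and WT 4 and SA/SA 4 were nearly level.

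The J-domain proteins pass unfolded clients to BiP. Dnajb9, known as ERdj4, was at 21.9, 19.8, 13.4 and 19.0 CPM in WT mice and 15.5, 28.9, 30.6 and 14.5 CPM in SA/SA mice. Dnajb11 was at 71.9, 60.0, 45.9 and 54.8 CPM in WT mice and 52.3, 109, 102 and 56.4 CPM in SA/SA mice. Their interactions were 1.29 (standard error 0.27, adjusted p = 0.232) and 1.21 (standard error 0.25, adjusted p = 0.222). Dnajc3, which also restrains PERK, had the smallest interaction of the chaperones at 0.68 (standard error 0.20), from 143, 122, 98.1 and 124 CPM in WT mice and 113, 151, 144 and 110.3 CPM in SA/SA mice.

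Sdf2l1, Creld2 and Manf, small ER-resident proteins that stress induces, spread most among the chaperones. Sdf2l1 was at 10.1, 9.07, 2.57 and 4.58 CPM in WT mice and 4.93, 31.5, 20.7 and 5.73 CPM in SA/SA mice, a 12.2-fold range between WT 3 and SA/SA 2. Its interaction was 2.63 (standard error 0.78, adjusted p = 0.303), and its genotype difference over all mice was 1.25 (standard error 0.62, adjusted p = 0.993). Creld2, on chromosome 15 from 88819646 to 88826683, was at 38.3, 46.5, 19.2 and 28.5 CPM in WT mice and 25.8, 99.1, 89.3 and 30.0 CPM in SA/SA mice. The 2 SA/SA mice of the high series were 3.14-fold above the WT mice of that series, and the 2 of the low series lay within the WT range. Manf was at 59.4, 55.4, 18.3 and 30.9 CPM in WT mice and 33.6, 121, 103 and 35.4 CPM in SA/SA mice, with an interaction of 1.99 (standard error 0.65, adjusted p = 0.334). Manf overlaps Rbm15b on the same strand and Dcaf1 on the other in the annotation, so its counts are less certain.

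**Figure D3:**
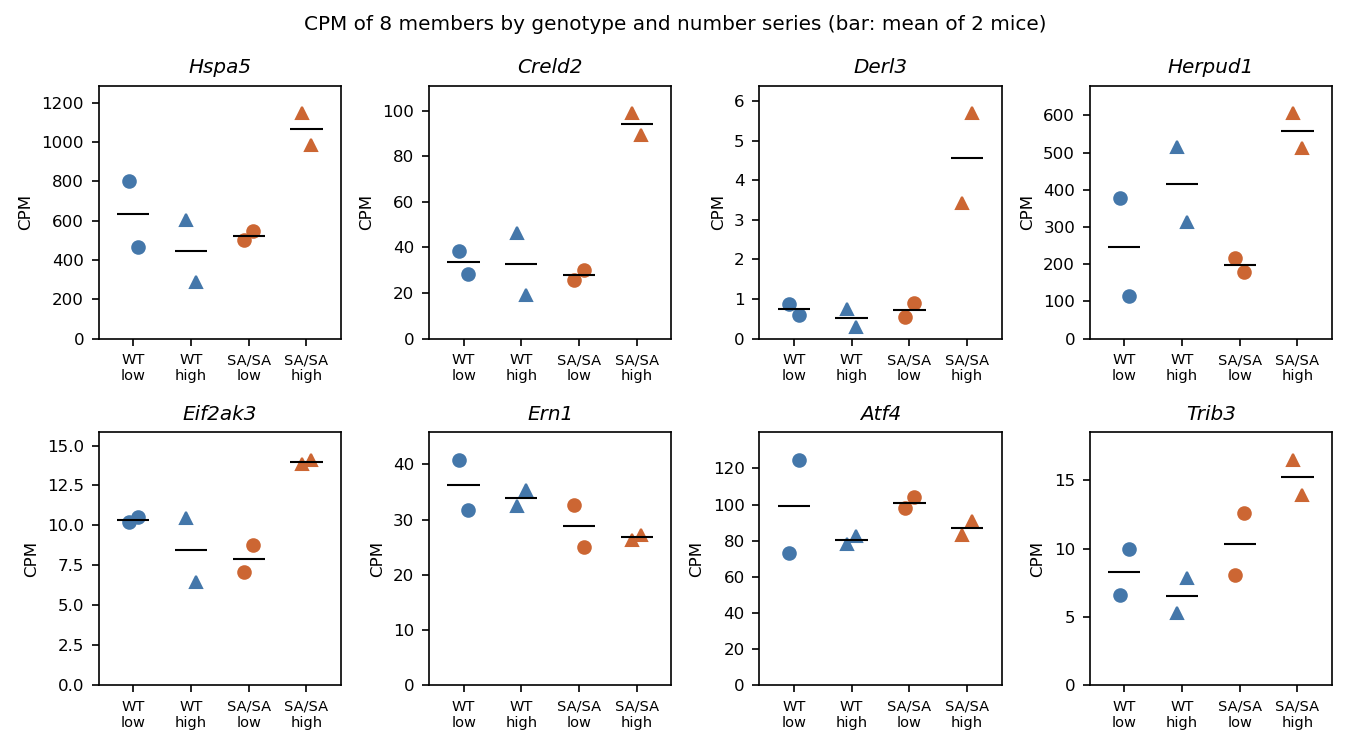
CPM of 8 members in each mouse, split by genotype and number series, with a bar at the mean of each pair of mice. For Hspa5 the SA/SA mice of the high series are at 1148 and 984 CPM and the other 6 mice between 288 and 802 CPM.

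Some marker lists of liver cells moved with these genes and others did not, and their part in the result was not tested. The median interaction was 1.34 for neutrophil markers (7 of 7 positive, 1 at an unadjusted p under 0.05). For B cell markers the median interaction was 0.83 (6 of 8 positive, 0 at that p, 7 highest in SA/SA 3). It was 0.24 for T and NK, 0.12 for endothelial and 0.09 for red blood cell markers. It was -0.12 for cholangiocyte, -0.26 for stellate, -0.33 for adipocyte and -2.28 for pancreatic acinar markers. The adipocyte median rests on 3 of 8 listed genes and the acinar median on 3 of 24, as the others were too low to test. Of 12 Kupffer cell and macrophage markers, 9 had a positive interaction at an unadjusted p under 0.05, where 6.02% of all genes did. In the high series both SA/SA mice were above both WT mice for 22.7% of all genes and for all 12 of these markers. Their summed level was 329 to 650.4 CPM in WT mice and 335 to 721 CPM in SA/SA mice, with SA/SA 2 highest and WT 4 next, and the median interaction of the list was 1.35. Of 13 hepatocyte markers 9 had a positive interaction, 3 of them at an unadjusted p under 0.05. The sum of the list was 165500 and 170500 CPM in SA/SA 2 and SA/SA 3 against 129500 to 146200 CPM in the other 6 mice. Of 12 plasma cell markers tested, 11 had a positive interaction, 7 of them at an unadjusted p under 0.05, with a list median of 4.46. The sum of the list was 2727 CPM in SA/SA 3 against 512 to 694 CPM in the other 7 mice. Sdc1 (349 to 484 CPM) and Txndc5 (126 to 167 CPM) made up most of that sum in the other 7 mice and SA/SA 3 lay within the range of the others for both. Ighm was at 1164 CPM in SA/SA 3 against 6.00 to 18.1 CPM in the others, and Igkc at 806 CPM against 7.07 to 21.2 CPM. That of pancreatic acinar markers was 57.8 CPM in WT 2 against 4.61 to 6.89 CPM elsewhere. No hepatocyte, Kupffer cell or plasma cell marker found in the table was at 0 in all mice. Without SA/SA 3 the median interaction of the members was 1.02 with 20 members at an unadjusted p under 0.05, without WT 2 it was 1.25 with 22, and without both it was 1.27 with 21, where 7.18%, 10.9% and 7.09% of all genes were. In whole liver, a change in the number of cells of a type and a change in RNA per cell cannot be told apart.

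In ER-associated degradation, 3 of 5 genes had a positive interaction at an unadjusted p under 0.05 (Edem1, Sel1l and Derl3), and the list median was 0.75. Derl3 encodes a derlin, a membrane protein of the channel through which misfolded proteins leave the ER, and lies on chromosome 10 from 75893413 to 75895941. It was low in this liver, at 0.876, 0.757, 0.295 and 0.592 CPM in WT mice and 0.538, 3.43, 5.70 and 0.910 CPM in SA/SA mice, from 14 to 216 counts. The 2 SA/SA mice of the high series were 8.63-fold above the WT mice of that series, and SA/SA 1 lay below 3 of the 4 WT mice. The interaction was 3.13 (standard error 0.77, adjusted p = 0.271), and the genotype difference was 2.05 (standard error 0.69, adjusted p = 0.993), or 1.36 without SA/SA 3. Ighm was at 8.89 CPM in SA/SA 2 and 1164 CPM in SA/SA 3, and the part of plasma cells in the Derl3 values was not tested.

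Edem1, a lectin that directs glycoproteins to degradation, was at 118, 110.2, 90.6 and 98.2 CPM in WT mice and 84.1, 136, 129.7 and 89.1 CPM in SA/SA mice. Sel1l, the partner of the ubiquitin ligase HRD1, was at 138, 119, 84.5 and 98.5 CPM in WT mice and 95.4, 131 and 81.8 CPM in SA/SA 1, SA/SA 3 and SA/SA 4, and was highest in SA/SA 2, with 7495 counts. For Edem1 the 2 SA/SA mice of the low series were below all 4 WT mice, and for Sel1l they were below the WT mice of their own series. Syvn1, which encodes HRD1 itself, had an interaction of 0.70 (standard error 0.38, adjusted p = 0.541) and ranged from 68.5 CPM in WT 4 to 170.2 CPM in SA/SA 2.

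Herpud1, a scaffold of the same complex, followed the number series more than the interaction. It was at 377, 516, 314 and 114 CPM in WT mice and 215, 606, 512 and 179 CPM in SA/SA mice. In the high series the level was 314 to 606 CPM and in the low series 114 to 377 CPM, with WT 1 alone reaching into the range of the high series. The difference between the series was 1.13 (standard error 0.35, adjusted p = 0.254 in edgeR, exact permutation test p = 0.0571). Its interaction was 0.75 (standard error 0.65, adjusted p = 0.719) and -0.36 without WT 1. The annotation places Gm15890 on the opposite strand within Herpud1.

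The 3 sensors differed from each other. Eif2ak3, which encodes PERK, was at 10.2, 10.4, 6.46 and 10.5 CPM in WT mice and 7.10, 13.8, 14.1 and 8.74 CPM in SA/SA mice, with an interaction of 1.11 (standard error 0.33, adjusted p = 0.305), in the manner of the chaperones. Ern1, which encodes IRE1 alpha, was at 40.9, 32.5, 35.4 and 31.7 CPM in WT mice and 32.6, 26.3, 27.2 and 25.1 CPM in SA/SA mice. Its genotype difference was nearly equal in both series, -0.33 (low) and -0.34 (high). It was the only member lower in SA/SA mice at an unadjusted p under 0.05, with a fold change of -0.34 on the log2 scale (standard error 0.12, adjusted p = 0.993, exact permutation test p = 0.0857). SA/SA 1 lay above WT 2 and WT 4 by less than 1 CPM, and the other 3 SA/SA mice were below every WT mouse. Atf6 was at 51.7, 61.3, 50.2 and 50.6 CPM in WT mice and 52.5, 66.4, 68.3 and 48.0 CPM in SA/SA mice, with a difference between the series of 0.27 (standard error 0.10, adjusted p = 0.320) and an interaction of 0.30 (standard error 0.19, adjusted p = 0.592). WT 3, of the high series, had the level of the low series mice.

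Of the 5 transcription factors only Xbp1 had an interaction at an unadjusted p under 0.05, at 0.87 (standard error 0.30, adjusted p = 0.347). Xbp1, whose mRNA is spliced by IRE1 alpha into the active form, was at 180.1, 154, 104 and 132 CPM in WT mice and 145, 207, 209 and 129 CPM in SA/SA mice. Gene counts do not tell spliced from unspliced Xbp1, and cleavage of ATF6 and phosphorylation of eIF2 alpha are not visible in them. Atf4 was at 73.4, 78.3, 82.6 and 125 CPM in WT mice and 98.0, 83.2, 90.7 and 104 CPM in SA/SA mice, with an interaction of 0.08 (standard error 0.31, adjusted p = 0.950). Its highest values were in WT 4 and SA/SA 4, neither of which was among the 2 highest for any chaperone, and ATF4 is controlled mainly in translation. Ddit3, which encodes the death-associated factor CHOP, stayed between 8.32 and 14.9 CPM with both genotypes mixed, and overlaps Mars and a second entry of its own name. Atf3 ranged from 1.77 CPM in WT 1 to 6.24 CPM in WT 4, and Atf5 from 607 CPM in SA/SA 3 to 1063 CPM in SA/SA 4. For Atf5, both SA/SA mice of the low series were above both WT mice, at 1021 and 1063 against 705 and 908 CPM, and Nup62 and Il4i1 lie on its opposite strand.

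The targets and feedback genes of the integrated stress response did not move as a group. Trib3, a pseudokinase that ATF4 and CHOP induce and that dampens them, was at 6.62, 5.24, 7.87 and 9.95 CPM in WT mice and 8.08, 16.5, 13.9 and 12.6 CPM in SA/SA mice. It had the smallest p of the members for genotype, with a fold change of 0.78 on the log2 scale (standard error 0.25, adjusted p = 0.993, exact permutation test p = 0.0571). All SA/SA mice but SA/SA 1 were above all WT mice, and the difference was 0.31 within the low and 1.23 within the high series. The interaction was 0.89 (standard error 0.42, adjusted p = 0.479).

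Chac1, which degrades glutathione and is induced by ATF4, was at 0.783, 0.438, 0.442 and 1.18 CPM in WT mice and 0.352, 1.61, 1.40 and 0.633 CPM in SA/SA mice. These values come from 19 to 78 counts. SA/SA mice were at 0.512 of the WT level in the low series and 3.21-fold above it in the high series, an interaction of 2.77 (standard error 0.68, adjusted p = 0.271). Asns, the asparagine synthetase gene, had only 3 to 31 counts per mouse, the highest in SA/SA 3. Its interaction was 3.05 (standard error 1.37, adjusted p = 0.465) and 0.67 without SA/SA 3, and its genotype difference was 0.71 (standard error 0.76, adjusted p = 0.993) and -0.10 without SA/SA 3. Ppp1r15a, whose product GADD34 removes the phosphate from eIF2 alpha, ranged from 7.12 CPM in WT 1 to 21.5 CPM in WT 4. Sesn2, a stress-induced regulator of amino acid signalling, ranged from 8.30 to 16.01 CPM in the same 2 mice. In both genes the SA/SA mice lay inside the WT range.

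Two-sided exact permutation tests of single genes gave no member a p under 0.05 for genotype or number series, where the smallest p that 4 mice against 4 allow is 0.0286. With 2 mice per genotype in each series, differences within a series were not tested.

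Other genes of the same pathways were taken from lists that were no part of the members. Of 133 such genes tested, 22 had a positive and 4 a negative interaction at an unadjusted p under 0.05. Over all genes, 6.02% were positive and 5.07% negative at that p. The share was highest among other genes of ER folding, translocation and glycosylation. There, 15 of 42 were positive and 0 negative at that p, and the list median was 0.27. The signal peptidase subunit gene Spcs3, which had the smallest p of this list, was at 30.0, 21.9, 22.3 and 26.9 CPM in WT mice and 20.5, 32.9, 32.2 and 22.6 CPM in SA/SA mice. Ostc, of the oligosaccharyltransferase, was at 24.8, 19.7, 19.8 and 21.7 CPM in WT mice and 19.3, 30.8, 27.0 and 17.9 CPM in SA/SA mice. In both genes the SA/SA mice were above the WT mice of the high series and below those of the low series. For the secretory pathway genes Dnajc1, Erp44 and Sec24d, named for genotype or series, the 8 mice ranged from 19.6 to 35.7, 30.8 to 45.7 and 48.3 to 72.7 CPM.

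The remaining lists held few genes at an unadjusted p under 0.05, and the counts of positive and negative interactions below are at that p. Over all genes 6.02% were positive and 5.07% negative. The lists of other sensors and of other integrated stress response factors lay near those shares. Among other genes of ER-associated degradation 2 of 21 were positive, the lectin gene Os9 (254 to 302 CPM in WT mice, and 379 and 362 CPM in SA/SA 2 and SA/SA 3) and Vimp. Among other sensors and processing factors of the unfolded protein response 1 of 17 was positive, Creb3l2, and 1 negative, Nfe2l2, the antioxidant factor NRF2. Nfe2l2 was at 43.3 and 46.1 CPM in SA/SA 2 and SA/SA 3 and at 58.3 to 67.7 CPM in the other 6 mice, below the WT mice of the high series. Among 25 other factors of the integrated stress response 1 was positive, Ddit4, and 1 negative, Fgf21. Among 28 amino acid genes controlled by ATF4, 3 were positive, among them Cth and Phgdh, and 2 negative, among them Mars.

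The hormone gene Fgf21, a target of ATF4 and of fasting, had a genotype difference within each series opposite in direction to that of the chaperones. It was at 32.1, 33.9, 23.8 and 30.5 CPM in WT mice and 44.4, 20.02, 19.0 and 42.4 CPM in SA/SA mice, so SA/SA mice were above WT mice of the low series and below those of the high series. Gdf15, the other stress hormone on the list, ranged from 4.98 to 12.8 CPM in WT mice and from 6.40 to 7.26 CPM in SA/SA mice. For the number series, Vldlr, the receptor gene that PERK and ATF4 induce, had the smallest adjusted p of these genes at 0.0618 in edgeR, at 12.2 to 18.7 CPM in the low series and 25.2 to 35.2 CPM in the high series. The mice of the series did not overlap for Vldlr, nor for the amino acid transporter gene Slc38a2 and the threonyl-tRNA synthetase gene Tars, the latter lower in the high series.

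**Figure D4:**
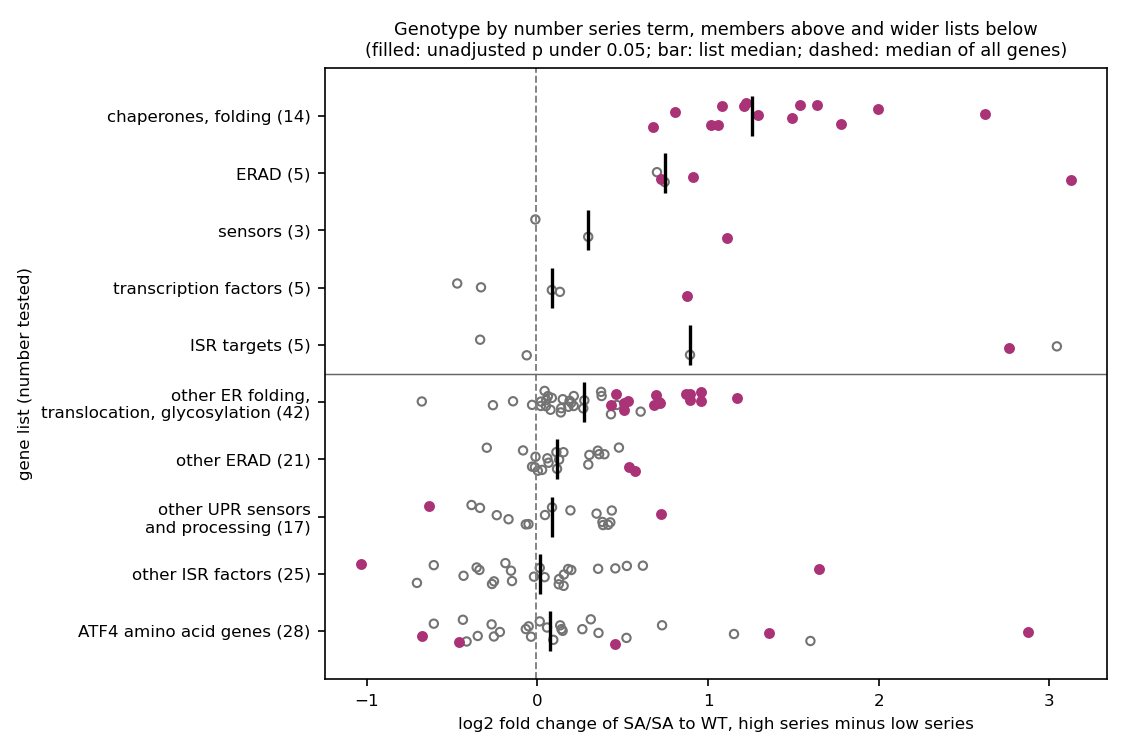
Interaction of each gene (log2 fold change of SA/SA to WT in the high series minus that in the low series) by role of the members and by wider list, with filled points at an unadjusted p under 0.05 and a bar at the median of each list. All 14 chaperones are filled and above 0, and their median of 1.26 compares with -0.0092 for all genes tested.

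Of the 10 genes with an ER stress response element of either form in the searched window, 8 had an interaction at an unadjusted p under 0.05, with a median of 1.04 and a range from 0.68 (Dnajc3) to 3.13 (Derl3). Of the 19 genes whose window lacked both forms, 10 did, with a median of 0.89 and a range from -0.47 (Atf5) to 3.05 (Asns). Over all genes, 6.02% had a positive and 5.07% a negative interaction at that p. The groups were not compared by a test. Every gene with an element was a chaperone or a gene of ER-associated degradation, so the groups also differed in role. The chaperones Pdia3, Pdia4, Dnajb9, Dnajb11 and Sdf2l1 had no match in the searched window, and each had a positive interaction at that p. It was 2.63 for Sdf2l1 and 1.22 for Pdia4. Among the 10 genes with an element, Herpud1 and Syvn1 were the 2 without an interaction at that p.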

How the data were processed

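Stranded mRNA libraries of liver were read as 100 bp pairs. The deposited table holds the salmon estimated counts of each gene, which the authors scaled for transcript length but not for library size. The submitters' processing notes also name GRCm38, bcl2fastq, STAR, SAMtools, MultiQC and DESeq2 without versions; the annotation release and the use of strand in counting are not given in the sources used here. Length scaling can alter the count of a gene whose isoforms differ between mice. Table columns were matched to mice by the number in the label, and genotype was taken from the labels.

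The estimated counts were rounded. Genes were kept with filterByExpr (14629 of 45706) and tested with edgeR 4.0.16 (quasi-likelihood, TMM, R 4.3.3) in fits with genotype, with genotype and number series, and with their interaction. Log2 CPM used a prior count of 2. Fold changes of mice within a series are differences of mean log2 CPM, or these differences taken back from the log2 scale to ratios, without a test. Library totals ranged from 39709785 to 54540864 counts. The p-values of edgeR set a difference against the spread between these mice, with the spread of each gene moderated over all genes tested. The most similar pair of libraries, SA/SA 2 and SA/SA 3, had a mean chi-square of 40.2 over genes, far above sampling noise (about 1), so all 8 were counted. The scripts were tested on simulated data. Gene positions are those of GENCODE on GRCm38 and promoter windows those of RefSeq on GRCm38.p6.

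The members, the wider lists and the marker lists were chosen with earlier results of these data known. Members were given in every mouse if they were sensors, reached an unadjusted p under 0.05 in a fit or had 1 mouse apart, and some others by choice. Of the wider lists, up to 2 genes per list and fit with the smallest p were eligible to be named, with Fgf21 and Gdf15. Alternatives were DESeq2 1.42.0, limma-voom (limma 3.58.1), other scalings and filters, a robust fit, a replicate block and leaving out mice.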

Additional observations from a re-analysis of the deposited data

Results flagged for a closer look

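In each of the 64 groups of 4 mice formed by the 32 members and the 2 genotypes, 1 mouse was looked for whose gap to its nearest neighbour took nearly the whole range of the group. There were 2 such groups among the 64, and chance alone gives about 1 in 20, so their number was not above that share. For Eif2ak3, WT 3 lay apart at 6.46 CPM from WT 1, WT 2 and WT 4 at 10.2 to 10.5 CPM. For Atf6, WT 2 lay apart at 61.3 CPM from WT 1, WT 3 and WT 4 at 50.2 to 51.7 CPM. WT 3 was also the lowest mouse for 18 of the 32 members and for 1527 of the 14629 genes tested. Without WT 3 the median interaction of the members was 0.78 with 19 members at an unadjusted p under 0.05.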

How the results depend on the processing

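Between 39709785 and 54540864 counts per mouse gave each member but Asns, Derl3 and Chac1 at least 81 counts in every mouse, so counting error is largest for those 3 genes. With DESeq2 in place of edgeR, 6 genes were called for genotype, 408 for the number series and 285 for the interaction, 13 of them members. Without the filter on low counts edgeR called 514 genes for the series, 2 of them members (Herpud1 and Creld2), and 765 for the interaction, 18 of them members. limma-voom called 1 gene for the interaction, and a series fit without the genotype term called 12. The cause of these differences was not tested. Leaving out 1 mouse gave 0 to 111 genes called for the series (111 without WT 3) and 0 to 40 for the interaction (40 without WT 4), with no member called, and a median interaction of the members between 0.78 (without WT 3) and 1.25 (without WT 2). The median was 1.27 without both WT 2 and SA/SA 3. The median genotype difference of the members was -0.24 (low series) and 0.78 (high series), and that of the series was -0.28 in WT and 0.69 in SA/SA mice.

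Over 96 pairs of gene and comparison, 1812 alternative values were computed, and 76 of these had the opposite sign to the main fit. For 6 of the pairs whose sign depended on the setting, none at an unadjusted p under 0.05, the values follow. Without single mice, the interaction ranged from -0.36 to 1.37 for Herpud1, from -0.35 to 0.42 for Atf4 and from -0.20 to 0.19 for Ern1 (-0.012 with all mice), and the genotype difference from -0.12 to 0.49 for Herpud1 (0.19 with all mice), from -0.016 to 0.27 for Atf4 (0.066 with all mice) and from -0.10 to 1.35 for Asns. The interaction of Atf4 was -0.057 with library size alone and -0.023 without WT 2 and SA/SA 3, where the genotype difference of Asns was -0.37. Replicate numbers did not pair the mice: the correlation of deviations between mice of the same number was 0.0565, 0.166, -0.111 and 0.129. With a replicate block for genotype, 0 genes were called and the median of the members was 0.28.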

Other observations

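Of 13 cytosolic heat shock genes, 0 had an interaction at an unadjusted p under 0.05 in edgeR in either direction. Their summed level was between 4119 and 5787 CPM in WT mice and between 4678 and 5652 CPM in SA/SA mice. Of 13 immediate early genes, which respond within minutes to handling and growth signals, 1 had a positive and 0 a negative interaction at that p. Over all genes, 6.02% had a positive and 5.07% a negative interaction at that p, and the counts of both lists lie near those shares. The sum of the immediate early genes was highest in WT 4, at 414 CPM, and lowest in WT 1, at 101 CPM. Atf4, Atf3, Ppp1r15a and Sesn2 were also highest in WT 4 and lowest in WT 1. These 4 genes were singled out after their values were seen.

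Ppib, the gene of an ER cyclophilin, was the reference gene of the study's qPCR and is singled out here after its values were seen. It was at 148, 146, 132 and 131 CPM in WT 1 to WT 4 and at 124, 220.1, 200.2 and 137 CPM in SA/SA 1 to SA/SA 4. It is 1 of the 15 wider ER folding genes with a positive interaction at an unadjusted p under 0.05 (adjusted p = 0.282 in edgeR). SA/SA 2 and SA/SA 3 were above all other mice.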
